A study of Drosophila melanogaster with 6 samples.

Results

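Non-LTR retrotransposons are mobile elements that copy themselves through an RNA intermediate and write the new copy directly at a nicked target, without the long terminal repeats of the retrovirus-like elements. Most copies in a genome are cut short at the 5′ end and cannot move. In Drosophila the group also forms the chromosome ends: HeT-A and TART insert at telomeres and do there the work that telomerase does in other animals. In the germline these elements are held down by piRNAs, small RNAs loaded on PIWI proteins, and in somatic tissue also by siRNAs and by heterochromatin.

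The deposited table has 1 row for each annotated copy. Rows with the biotype transposable element were taken where the element name was Doc, Doc2 to Doc4, F, jockey, jockey2, X, I, BS, Juan, G and its numbered relatives, Cr1a, baggins, Ivk, Rt1a, Rt1b, Rt1c, R1A1, HeT-A or TART, which gave 1032 insertions in 32 families among 5578 transposable element rows and 23932 rows in all. No row was named TAHRE. Salivary glands (SGs) of L3 larvae were compared between de2f1b mutants (replicates 1 to 4, n = 4 libraries), which lack the dE2F1b isoform of the transcription factor dE2F1, and w1118 controls (replicates 1 and 4, n = 2 libraries), the laboratory strain with a white mutation. The labels name no allele pair, sex or number of glands for the RNA-seq libraries. Values are normalized counts, the reads of a row divided by 1 size factor per library, and p-values measure the spread between the 6 libraries.

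The libraries held 56495956 to 86202639 reads on annotated rows in de2f1b SGs and 78317269 to 94907006 in w1118 SGs, so that 1 read was worth a normalized count of 0.782 to 1.37 and a row with no read could have had up to 2.35 to 4.11 (3 reads, counting error only). E2f1 itself had 7190 to 12896 in de2f1b SGs and 12544 and 18666 in w1118 SGs, which does not check the labels, because a count per gene cannot show the loss of 1 isoform. The glue genes that define the secreting SG summed to 7770940 to 18543000 in de2f1b libraries and 9975730 and 19215600 in w1118 libraries. Markers of other organs were not level between libraries. Ring gland genes summed to 41.3 and 54.8 in de2f1b replicates 1 and 2, to 12190 and 16435 in replicates 3 and 4, and to 51.7 and 32.1 in w1118. Testis genes summed to 2511 in de2f1b replicate 3, to 103 to 197 in the other de2f1b replicates, and to 69.2 and 40.3 in w1118. Outside de2f1b replicate 3 nearly all of this was 1 gene, Mst87F (179, 196 and 97.0 in de2f1b replicates 1, 2 and 4, and 65.0 and 37.6 in w1118). The other testis genes had at most 4.69 each there. Hemocyte genes summed to 1394 to 2161 in de2f1b libraries and 2229 and 2681 in w1118 libraries. These 4 genes did not move together. The log2 fold change was negative in 3, among them eater (−1.49), and positive in NimC1 (1.11). Fat body genes summed to 2936470 to 5781040 in de2f1b libraries and 4406060 and 4814500 in w1118 libraries.

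Non-LTR insertions were sparsely represented in RNA. Of the 1032 insertions, 563 (54.6%) had no read in any library and 469 had at least 1. Between 249 and 309 insertions had a read in each de2f1b library, against 257 and 249 in the w1118 libraries. Together they took 9895 to 12699 reads per de2f1b library and 11160 and 11332 per w1118 library. The 153 insertions (14.8%) that reached a normalized count of 10 in 2 or more libraries entered the test, and the other 879 had means of at most 7.39. Each copy in the reference genome is a row of its own, and whether the larvae carry that copy was not tested. How reads that match several copies were counted is not given in the sources used here, so values of near-identical copies, above all of Doc and F, are uncertain one by one.

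Few single insertions passed the test, while most of the tested insertions had a fold change above 0. X{}1103 and G6{}1178 rose in de2f1b SGs and no insertion fell, so 2 of 153 were called at an adjusted p under 0.05 (limma, Benjamini-Hochberg adjustment over 11099 rows), against 3.17% of all rows tested called higher and 1.07% called lower. At an unadjusted p under 0.05 there were 17 higher and 5 lower of the 153 insertions, against 1387 higher and 1009 lower of all 11099 rows. On the whole reads edgeR called 0 insertions in either direction, against 198 higher and 89 lower of all rows. DESeq2 called 8 insertions higher and 2 lower, against 1088 higher and 556 lower of all rows. All 4 de2f1b libraries lay above both controls in 36 insertions, or 23.5% against 17.4% of all rows tested, and below both in 7, or 4.58% against 16% of all rows. The fold change was above 0 in 134 insertions and below 0 in 19. Of the 134, 57 were Doc and 47 were F copies, which share libraries and perhaps reads, so these copies are not independent. The median log2 fold change of the 153 was 0.57, with a range of −4.14 to 5.16, where all rows tested had a median of 0.02. It was 0.33 without de2f1b replicate 1 and 0.77 without de2f1b replicate 4. Scaling each library to the same total moved the median of all rows to 0.17 and that of the insertions to 0.73. The same total outside the 50 most abundant genes moved them to 0.23 and 0.77. Under both scalings the distance between the medians stayed near that of the deposited scale. Without the filter on low values it was smaller, with medians of 0.24 over 17753 rows and 0.37 over 469 insertions. Insertions low in w1118 SGs could pass the filter through de2f1b libraries alone, as both called insertions, X{}1103 and G6{}1178, did. The remaining 342 transposable elements tested, mostly of other classes, had a median of 1.45, with 32 called higher, 4 called lower and 186 above both controls.

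**Figure D1:**
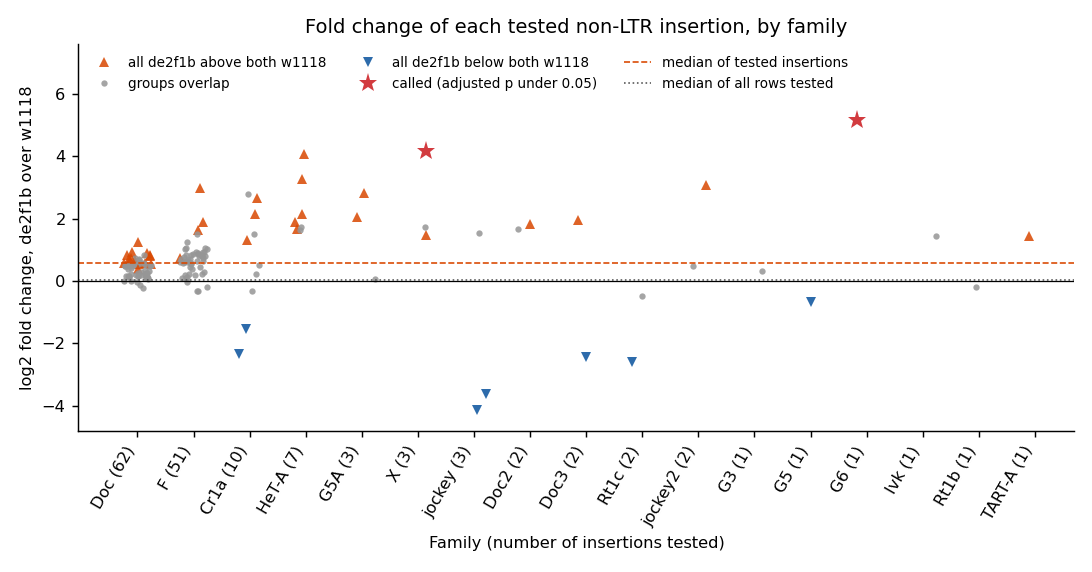
Log2 fold change (de2f1b over w1118, after adding 1 to each normalized count) of each of the 153 tested insertions, by family, with the number tested in brackets. Stars mark the 2 called insertions, triangles those whose groups do not overlap and grey points the rest. The dashed line is the median of the tested insertions (0.57) and the dotted line that of all rows tested (0.02).

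The sum over all insertions was 16938, 13554, 10252 and 8269 in de2f1b replicates 1, 2, 3 and 4, and 9306 and 10388 in w1118 replicates 1 and 4. The groups overlapped, with de2f1b replicate 4 below both controls and replicate 3 below w1118 replicate 4, and the log2 ratio of the means was 0.32. It was 0.12 without de2f1b replicate 1. A single Doc copy in the gene CHKov1 held 40.5% of this sum. Without it the sums were 10773, 8627, 6459 and 4970 in de2f1b SGs and 4548 and 5477 in w1118 SGs, a log2 ratio of 0.62, again with an overlap. The insertions that were neither Doc nor F summed to 1556 to 2382 in de2f1b SGs and 1152 and 1420 in w1118 SGs, with no overlap and a log2 ratio of 0.63.

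By family, 11 of 32 summed levels were higher in each de2f1b library than in both controls, 2 were lower (jockey and Rt1c) and 19 overlapped. Of all single rows tested, 17.4% were above both controls and 16% below, though sums of copies are not strictly like single rows. Among the 11, w1118 libraries held few reads of G (0 and 0), G6 (0 and 4) and G4 (6 and 1). With libraries scaled to equal totals TART-A joined those that overlapped, leaving 10 higher. Some sums leaned on 1 or 2 copies and need not describe the rest of the family. jockey{}838 had 27.5 and 44.0, and jockey{}118 10.8 and 11.9, of the jockey sums of 64.2 and 95.3 in w1118 SGs. Rt1c{}5065 had 70.9 and 48.6 of the Rt1c sums of 94.2 and 64.2 there. G5A{}6193 had 482, 592, 251 and 198 of the G5A sums of 528, 618, 327 and 222 in de2f1b SGs. In 15 families no insertion reached the level for a test, and BS4 had no more than 3 reads in any library.

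**Figure D2:**
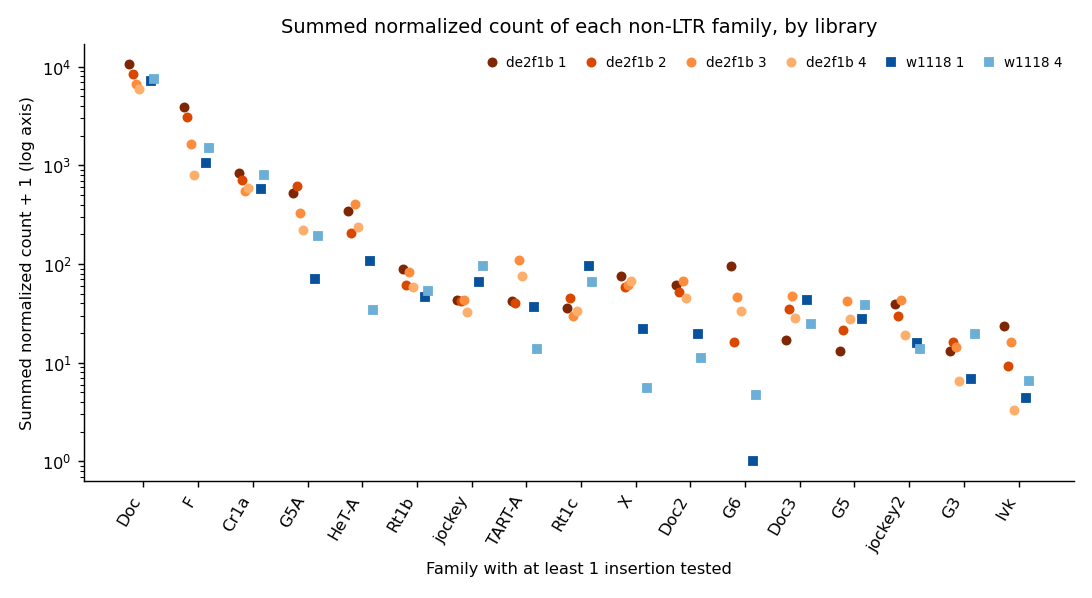
Summed normalized count plus 1 (log axis) of each of the 17 families with at least 1 tested insertion, with circles for the 4 de2f1b libraries and squares for the 2 w1118 libraries. HeT-A, X, G5A, Doc2, G6, Rt1b, TART-A and jockey2 have all circles above both squares, jockey and Rt1c have all below, and TART-A overlaps when libraries are scaled to the same total.

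Among the telomeric elements, HeT-A RNA was higher in every de2f1b library. HeT-A encodes a Gag-like protein only and relies on reverse transcriptase from elsewhere. The sum of its 26 annotated copies was 341, 204, 401 and 235 in de2f1b replicates 1 to 4, against 105 and 33.0 in w1118 replicates 1 and 4. The lowest de2f1b library was thus above the higher control, and the log2 ratio of the means was 2.10. It was 3.16 without w1118 replicate 1 and 1.49 without w1118 replicate 4, so its size depended on which of the controls was used, and it was 1.91 without de2f1b replicate 3, the library with the high testis markers.

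All 7 HeT-A copies that were tested had a positive fold change, with a median log2 of 1.89. In 5 of them all mutants were above both controls, where 17.4% of all rows were. HeT-A{}6262, HeT-A{}6276 and HeT-A{}4795 stayed under 10 in both controls and passed the filter through de2f1b libraries alone. Such selection favours positive fold changes, so the counts of copies and their median are partly set by the filter. None of the 7 passed the test with limma (5 had an unadjusted p under 0.05) or with edgeR. DESeq2 called 4 higher, and 1088 of all 11099 rows. HeT-A{}6262 (chromosome 4, 1314342 to 1320140 in BDGP6.54, 5799 bp, no gene) had normalized counts of 86.7, 41.1, 122 and 42.2 in de2f1b SGs and 9.17 and 3.67 in w1118 SGs. Its log2 difference was 3.27 with a standard error of 0.67 (adjusted p = 0.0501, limma), just outside the threshold. HeT-A{}6276 (chromosome 4, 1282540 to 1288109, 5570 bp) had 34.7, 10.96, 46.1 and 12.5 in de2f1b SGs and 0.834 and 0 in w1118 SGs, where 1 read was counted in all. Its reads were 59.9-fold higher in de2f1b SGs, with a 95% counting interval of 10.5 to 2387, and its log2 difference was 4.08 with a standard error of 0.89 (adjusted p = 0.0595, limma). In both copies de2f1b replicates 1 and 3 were high and replicates 2 and 4 low, and both controls stayed below all of them.

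The order of mutants varied among the other tested HeT-A copies. De2f1b replicates 1 and 3 were again the highest in HeT-A{}4795 and HeT-A{}6278, and not in HeT-A{}6270. HeT-A{}4795, near the left end of the X chromosome (109756 to 114008), had 30.7, 20.5, 40.7 and 18.8 in de2f1b SGs and 5.84 and 4.58 in w1118 SGs. HeT-A{}6278 had 78.7, 60.3, 61.5 and 39.9 in de2f1b SGs and 24.2 and 9.17 in w1118 SGs. HeT-A{}6270 had 64.0, 38.4, 28.9 and 39.9 in de2f1b SGs and 15.0 and 10.1 in w1118 SGs. These 3 had no overlap, while HeT-A{}6268, with 24.0 to 76.9 in de2f1b SGs and 31.7 and 4.58 in w1118 SGs, and the 20 bp fragment HeT-A{}6281 overlapped. Of the 7 tested copies, 6 lie on chromosome 4 to the right of Cadps, a gene for a protein of regulated vesicle release, whose count rose in de2f1b SGs (log2 fold change 0.90, adjusted p = 0.0376, limma).

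TART carries its own reverse transcriptase and showed a smaller difference. The only tested TART copy was TART-A{}4601 (chromosome 4, 1272188 to 1272496, 309 bp), 429 bp beyond Cadps. It had 41.3, 39.7, 107 and 74.3 in de2f1b SGs and 35.9 and 12.8 in w1118 SGs, so replicates 3 and 4 were well above the controls and replicates 1 and 2 only just above w1118 replicate 1. The log2 fold change was 1.44 (adjusted p = 0.257, limma). TART-B had 14, 3, 0 and 1 reads in de2f1b libraries and none in w1118 libraries, and TART-C had 0, 0, 1 and 4 reads in de2f1b and 2 and 3 in w1118.

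**Figure D3:**
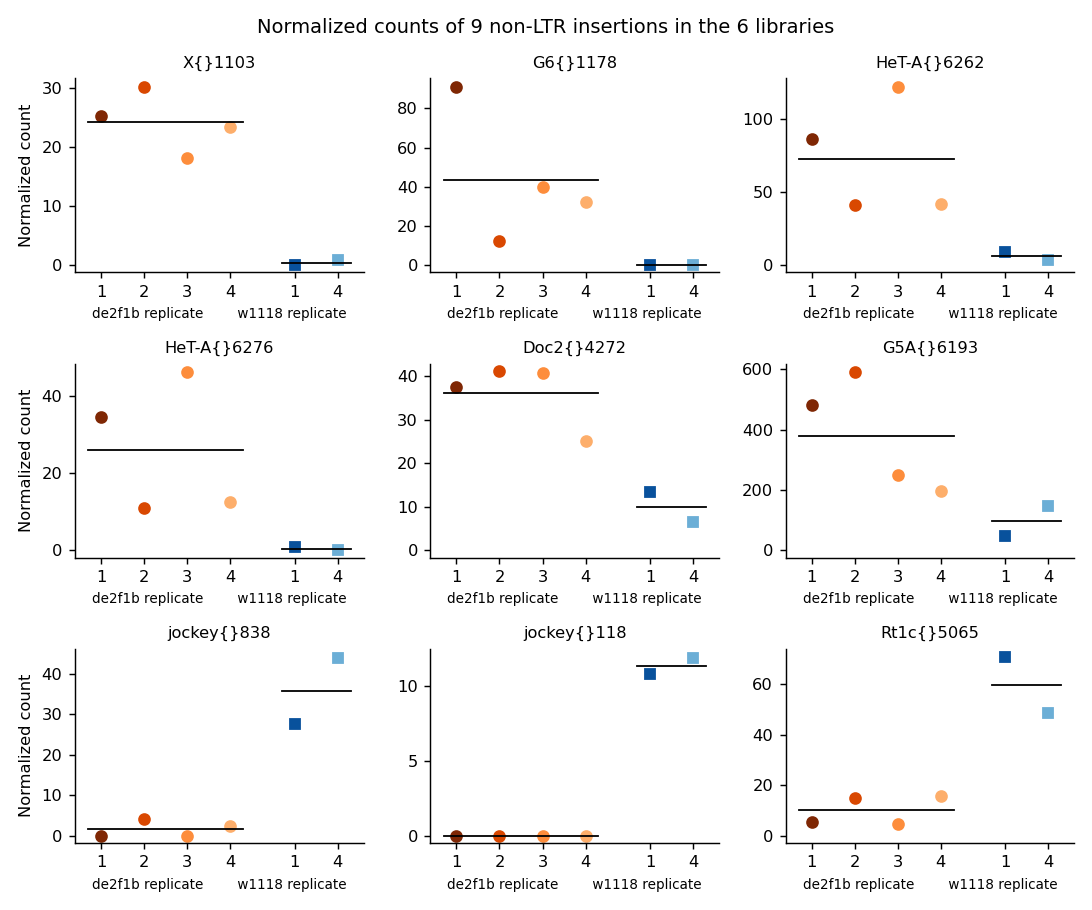
Normalized counts of 9 insertions in the 4 de2f1b libraries (circles) and the 2 w1118 libraries (squares), with horizontal lines at the group means. The 9 named insertions without overlap that have the lowest p are shown. In the first 6 panels each de2f1b library is above both controls, and in jockey{}838, jockey{}118 and Rt1c{}5065 each is below both. Of the 9, limma called X{}1103 and G6{}1178.

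Both called insertions lie outside genes on the part of chromosome 3L next to the centromere. X{}1103 (FBti0020214, 22976632 to 22976944, minus strand) is a fragment of 313 bp of the X element, a relative of jockey and F. It had normalized counts of 25.3, 30.1, 18.1 and 23.5 in de2f1b SGs and 0 and 0.917 in w1118 SGs, from 19 to 30 reads per de2f1b library and 1 read in both controls together. All mutants were well above both controls, with a log2 difference of 4.17 and a standard error of 0.69 (adjusted p = 0.0278, limma), and a ratio of reads of 53.9 with a 95% counting interval of 9.44 to 2153. It lies 10698 bp from CG32457 and 14964 bp from lncRNA:CR45758, its nearest genes, neither of which had more than 2.67 in any library. The family sum of X was 74.7, 57.5, 60.6 and 66.5 in de2f1b SGs and 20.8 and 4.58 in w1118 SGs, of which X{}1103 made up only a part.

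G6{}1178 (FBti0020289, 23199035 to 23200837, plus strand, 1803 bp, overlapping 1 other annotated element) had 90.7, 12.3, 39.8 and 32.1 in de2f1b SGs and no read in either w1118 library. De2f1b replicate 1 was by far the highest of the mutants, and the lowest of them, replicate 2, still stood above the value of 3 reads in the controls. The mean was at least 16.7-fold higher in de2f1b SGs (against 3 reads per control library), with an adjusted p of 0.0320 (limma). The nearest gene to its right, 5832 bp away on the same strand, is nAChRalpha4, which encodes a subunit of the nicotinic acetylcholine receptor. That gene rose too, with 383, 496, 320 and 346 in de2f1b SGs and 58.4 and 51.3 in w1118 SGs (log2 fold change 2.78, adjusted p = 0.00528, limma).

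Both calls depended on the libraries used. Leaving out de2f1b replicate 2 kept G6{}1178 alone and leaving out de2f1b replicate 3 kept X{}1103 alone, and neither stayed without any of the other libraries. Their log2 fold changes then ranged from 3.70 to 4.64 for X{}1103 and from 4.71 to 5.64 for G6{}1178.

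A Cr1a copy inside nAChRalpha4 did not share the change of its gene. Cr1a belongs to a clade of non-LTR elements also found in vertebrates. Cr1a{}1607 (chromosome 3L, 23279468 to 23283577, 4110 bp, in an intron on the strand of the gene) had 480, 448, 329 and 380 in de2f1b SGs and 407 and 616 in w1118 SGs, a log2 fold change of −0.31 (adjusted p = 0.528, limma) with overlapping groups. The noncoding gene lncRNA:CR46475, 298 bp to its left on the other strand, fell in de2f1b SGs, with 34.7, 27.4, 38.9 and 42.2, against 246 and 197 in w1118 SGs (log2 fold change −2.60, adjusted p = 0.0173, limma). The element thus overlapped between the groups, while its host rose and the noncoding gene beside it fell.

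The 10 tested Cr1a copies had fold changes of both signs. All de2f1b libraries lay above both controls in 3, where 17.4% of all rows did, and below both in 2, where 16% of all rows did, and the range of log2 fold changes was −2.35 to 2.80. Cr1a{}3927 (chromosome 3L, 23145011 to 23145542, no gene) had 30.7, 12.3, 10.9 and 7.82 in de2f1b SGs and 4.17 and 0 in w1118 SGs (log2 fold change 2.67, adjusted p = 0.193, limma). The mutants stood above both controls, with replicate 4 the closest to w1118 replicate 1. None of the 10 was called by limma, edgeR or DESeq2, and 2 were higher and 1 lower at an unadjusted p under 0.05 (limma).

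Lower levels were seen in jockey, Rt1c and Doc3 insertions, none of which was called by limma, while DESeq2 called jockey{}838 and Rt1c{}5065 lower. jockey is the element that gave its name to the clade with F, Doc and X. jockey{}838 (chromosome 2R, 17147305 to 17152263, 4959 bp) had 0, 4.11, 0 and 2.35 in de2f1b SGs and 27.5 and 44.0 in w1118 SGs, a log2 difference of −4.14 with a standard error of 1.05 (adjusted p = 0.0891, limma). With at most 3 reads in each de2f1b library, it was near the limit of detection there. jockey{}118 (chromosome X, 13429519 to 13430606) had no read in any de2f1b library and 10.8 and 11.9 in w1118 SGs, which were at least 3.46-fold higher (adjusted p = 0.109, limma). Neto, 15297 bp to its right, was called lower (log2 fold change −2.23, adjusted p = 0.0490, limma), and Set2, 8495 bp to its left, was not (−0.15, adjusted p = 0.660). The jockey sum over 96 copies was 42.7, 41.1, 42.5 and 31.3 in de2f1b SGs and 64.2 and 95.3 in w1118 SGs.

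G5A{}6193 lies beside jockey{}838 and moved the other way. This fragment of 161 bp (chromosome 2R, 17146015 to 17146175, plus strand) had the highest count per kilobase of the tested insertions, 1777 on average over the 6 libraries. Its normalized counts were 482, 592, 251 and 198 in de2f1b SGs and 46.7 and 148 in w1118 SGs, all mutants being above both controls (log2 fold change 2.04, adjusted p = 0.135, limma). At 189 bp to its left on the same strand is snoRNA:U3:54Ab, a gene for the U3 small nucleolar RNA of ribosomal RNA processing. That row had 369, 478, 195 and 142 in de2f1b SGs and 52.5 and 161 in w1118 SGs (log2 fold change 1.51, adjusted p = 0.239, limma). Both rows put the 4 mutants in the same order, replicate 2 first, then 1, 3 and 4, and both had the higher control in w1118 replicate 4. Another G5A fragment, G5A{}3723 in an intron of the beta-mannosidase gene beta-Man, had 18.7, 16.4, 11.8 and 6.26 in de2f1b SGs and 2.50 and 0 in w1118 SGs, a ratio of reads of 9.29 with a 95% counting interval of 2.99 to 46.6 (adjusted p = 0.145, limma).

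The Rt1c and Cr1a insertions in conu were low together with that gene. conu fell in de2f1b SGs, with 405, 1151, 470 and 1247, against 4901 and 5403 in w1118 SGs (log2 fold change −2.83, adjusted p = 0.0352, limma). Rt1c{}5065 (chromosome 2R, 4752406 to 4753474, 1069 bp), a member of the R1 clade in an intron on the strand of the gene, had 5.34, 15.1, 4.52 and 15.6 in de2f1b SGs and 70.9 and 48.6 in w1118 SGs (log2 fold change −2.60 with a standard error of 0.72, adjusted p = 0.109, limma). Mutant replicates 2 and 4 had the higher counts in the gene and in the insertion alike. Cr1a{}5025, a fragment of 430 bp in the same gene, had 1.33, 8.22, 0.904 and 1.56 in de2f1b SGs and 14.2 and 16.5 in w1118 SGs (adjusted p = 0.227, limma). Without overlap as well, Cr1a{}5022 outside conu had 22.7, 10.96, 9.04 and 28.9 in de2f1b SGs and 58.4 and 40.3 in w1118 SGs.

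Over all tested insertions, however, the host gene said little about its insertion. Of the 153, 69 lay outside genes, 76 in introns and 8 over an exon, with median log2 fold changes of 0.65, 0.52 and 0.56. For 75 of the insertions inside genes the host was tested too. The signs of both fold changes were the same in 51 of these 75, with Pearson's r = 0.32 and Spearman's rank correlation = 0.18 across insertions, which are not independent because some share a host and the same libraries. In the 7 called hosts lay 9 insertions, of which limma called none, DESeq2 called Rt1c{}5065, and 8 had the sign of the host. Besides those in conu and nAChRalpha4, Cr1a{}1596 in nrm, a gene for an adhesion protein, had a log2 fold change of 2.15 (adjusted p = 0.207, limma), and the gene 2.39 (adjusted p = 0.0182, limma). The median log2 fold change was 0.48 for the 35 insertions on the strand of their host and 0.58 for the 49 on the opposite strand. Whether the counting used strand is not given in the sources used here, so for insertions inside genes reads of the host and of the element cannot be told apart.

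**Figure D4:**
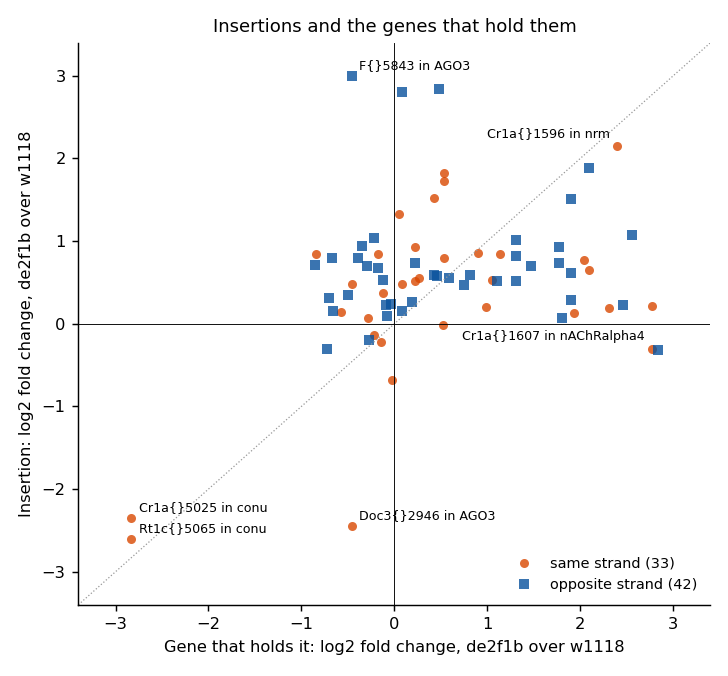
Log2 fold change (de2f1b over w1118) of 75 tested insertions against that of the gene that holds each, with orange circles for the same strand and blue squares for the opposite strand. The dotted line marks equal values. The insertions in conu sit near it at the lower left, Cr1a{}1596 near it at the upper right, and Cr1a{}1607 in nAChRalpha4 lies far below it.

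AGO3, a PIWI protein gene of the piRNA pathway with very long introns, held 3 tested insertions, of which 2 had opposite values without overlap. F{}5843 (235 bp, opposite strand) had 14.7, 16.4, 7.24 and 0.782 in de2f1b SGs and no read in w1118 SGs, at least 3.73-fold higher (adjusted p = 0.223, limma), with 1 read only in de2f1b replicate 4. Doc3{}2946 (1715 bp, same strand) had 1.33, 13.7, 3.62 and 2.35 in de2f1b SGs and 30.02 and 21.1 in w1118 SGs (log2 fold change −2.45, adjusted p = 0.203, limma). AGO3 itself had 82.7 to 166 in de2f1b SGs and 168 and 147 in w1118 SGs (adjusted p = 0.483, limma).

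Doc and F made up 113 of the 153 tested insertions (73.9%). Both are elements of the jockey clade with many long copies in the genome. For Doc, 62 of 80 copies were tested, with a median length of 4718.5 bp against 238.5 bp for those not tested, and for F 51 of 87 were tested, with 4692 bp against 1002 bp. Of the Doc copies of at least 3000 bp, 47 of 53 reached the level for a test, and of the F copies 46 of 56. Mean normalized counts over the 6 libraries ran from 6.52 to 120 in F copies, and from 8.80 to 127 in Doc copies other than the one in CHKov1.

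Copies of F followed 1 profile over the libraries, and it did not split by genotype. Their median values, as log2 values (normalized count plus 1) minus the mean of each copy, were 1.21, 0.88, −0.03 and −1.12 in de2f1b replicates 1, 2, 3 and 4, and −0.68 and −0.27 in w1118 replicates 1 and 4. De2f1b replicate 1 was above both controls in 51 of 51 copies and replicate 2 in 46, while replicate 4 was below both in 35 of 51. The mutants thus enclosed the controls, and 47 of 51 copies overlapped. The summed level was 3868, 3074, 1641 and 797 in de2f1b SGs and 1051 and 1502 in w1118 SGs. The correlation of a copy with the sum of the other copies over the 6 libraries had a median of 0.93 and a lowest value of −0.15, a description in which all copies share the libraries and, for near-identical copies, perhaps reads. F{}RR48350 (chromosome 3R, 3804981 to 3809602, 4622 bp), the F copy with the highest mean, had 233, 211, 81.4 and 57.1 in de2f1b SGs and 55.0 and 83.4 in w1118 SGs (log2 fold change 0.85, adjusted p = 0.483, limma). No F copy was called by limma, edgeR or DESeq2, and 2 were higher at an unadjusted p under 0.05 (limma). Without de2f1b replicate 4 the median log2 fold change of F copies was 1.14, without replicate 1 it was 0.38, and with all libraries 0.70. Replicates 3 and 4 are also those with the high ring gland markers. The part of that RNA in the profile was not tested, and without both replicates the median was 1.52.

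**Figure D5:**
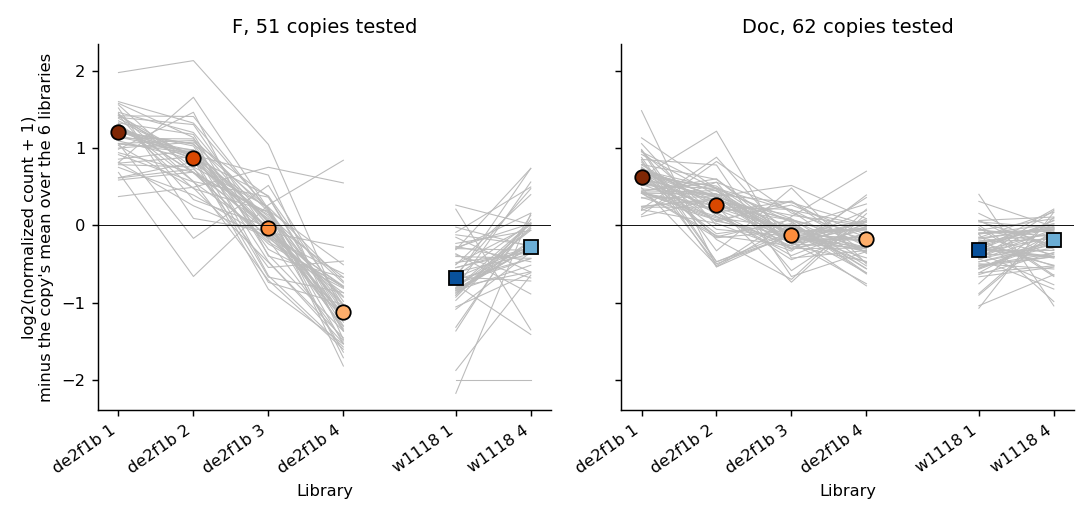
Log2 of the normalized count plus 1 of each tested F copy (left) and Doc copy (right), minus its mean over the 6 libraries. Grey lines join the values of 1 copy, and the large circles (de2f1b) and squares (w1118) are medians. F runs from 1.21 to −1.12 within the de2f1b libraries, and Doc from 0.63 to −0.18.

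Doc copies had a like but narrower profile. Their medians on the same scale were 0.63, 0.26, −0.12 and −0.18 in de2f1b replicates 1 to 4, and −0.31 and −0.18 in w1118 replicates 1 and 4. The log2 fold change was positive in 57 copies and negative in 5, with a median of 0.48 and a range of −0.22 to 1.25. In 15 of 62 copies (24.2%) all mutants were above both controls, where 17.4% of all rows were, and in none were all below. Without the copy in CHKov1 the Doc sum was 4523, 3509, 2812 and 2617 in de2f1b SGs and 2345 and 2555 in w1118 SGs, a log2 ratio of 0.46, with de2f1b replicate 4 only just above the higher control. No Doc copy was called by limma (2 were higher at an unadjusted p under 0.05) or edgeR, and DESeq2 called 1. The highest fold change, in a copy picked after its values were seen, was that of Doc{}130 (chromosome X, 14778097 to 14782817), with 135, 108, 119 and 88.4 in de2f1b SGs and 40.0 and 53.2 in w1118 SGs (log2 fold change 1.25, adjusted p = 0.111, limma).

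The Doc copy in CHKov1 stood apart from the others by its level. Its fold change was among the 5 negative ones of the 62 tested Doc copies. Doc{}CHKov1[Doc1420] (chromosome 3R, 25324412 to 25328927, 4516 bp, almost wholly intronic) interrupts a gene named for likeness to choline kinases, and is known from fly populations where it spread with resistance to insecticide and to sigma virus. It had 6165, 4927, 3793 and 3298 in de2f1b SGs and 4758 and 4911 in w1118 SGs, or 1028 per kilobase on average, against a median of 11.9 per kilobase for the other tested Doc copies. The groups overlapped (log2 fold change −0.13, adjusted p = 0.790, limma). CHKov1 had 3881, 3827, 2541 and 2638 in de2f1b SGs and 3367 and 4040 in w1118 SGs, also with an overlap (−0.22, adjusted p = 0.600). CHKov2, 603 bp to the right and on the same strand, rose, with 1398, 1584, 1003 and 1165 in de2f1b SGs and 186 and 184 in w1118 SGs (log2 fold change 2.77, adjusted p = 0.00282, limma).

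In the small families, levels were low. Doc2{}4272, in an intron of Stlk, had 37.3, 41.1, 40.7 and 25.0 in de2f1b SGs and 13.3 and 6.42 in w1118 SGs (log2 fold change 1.82, adjusted p = 0.132, limma). jockey2{}2423 had 5.34, 12.3, 17.2 and 2.35 in de2f1b SGs and no read in w1118 SGs, at least 3.54-fold higher (adjusted p = 0.164, limma). The I element, whose activity causes the I-R form of hybrid dysgenesis, summed to 30.7, 24.7, 31.7 and 14.1 in de2f1b SGs and 10.8 and 12.8 in w1118 SGs, with no single copy high enough for a test. G4 summed to 17.2 to 28.8 in de2f1b SGs and 5.003 and 0.917 in w1118 SGs, and the plain G family to 11.7 to 15.4 in de2f1b SGs with no read in w1118 SGs. Groups overlapped in the most expressed copies of G3 (G3{}639, log2 fold change 0.32), Ivk (Ivk{}1704, 1.44), Rt1b (Rt1b{}5667, −0.20) and jockey2 in pho (jockey2{}pho[1682], 0.48), with adjusted p-values of 0.434 to 0.918 (limma). G5{}1484, which overlaps an exon of Ank, had 9.34 to 21.9 in de2f1b SGs and 23.3 and 28.4 in w1118 SGs (adjusted p = 0.527, limma).

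Genes that restrain these elements were read from lists of the pathways. Of 26 piRNA genes, 25 were tested and limma called 2 higher, where it called 3.17% of all rows tested higher. They were moon, which starts transcription of piRNA clusters in the ovary, and Gasz, a mitochondrial protein of piRNA processing. moon had 111, 49.3, 87.7 and 74.3 in de2f1b SGs and 5.003 and 0 in w1118 SGs (log2 fold change 4.998, adjusted p = 0.0269, limma), and Gasz 600, 529, 536 and 500 in de2f1b SGs and 256 and 263 in w1118 SGs (1.05, adjusted p = 0.0336, limma). The other 23 tested were not called by limma, and armi was listed at 0. Of the whole list edgeR called 1 higher and DESeq2 8 higher, against 198 and 1088 of all 11099 rows. Neither called any lower, against 89 and 556 of all rows. In 13 of the 25 all mutants were above both controls, as in 17.4% of all rows, and in none below both, as in 16% of all rows. The median log2 fold change was 1.25, where all rows tested had 0.02. Among the 13, moon, aub, rhi, krimp, BoYb, tej and vas stayed under 10 in both controls. They passed the filter through de2f1b libraries alone, which favours such a split and a positive median. The PIWI protein gene aub had 69.4, 54.8, 230 and 36.8 in de2f1b SGs and 7.505 and 8.25 in w1118 SGs (adjusted p = 0.0835, limma). Germline marker genes, which include vas of the same list, summed to 21.3, 35.6, 114.9 and 17.2 in de2f1b SGs and 5.003 and 4.58 in w1118 SGs. Both tested ones, bam and vas, were above both controls in every mutant, and both passed the filter through de2f1b libraries alone. The markers osk and nos were not tested: osk had at most 1 read and nos overlapped. Replicate 3, with the high testis genes, had the highest aub and vas counts. The part of such RNA in the piRNA genes or in the insertions was not tested, and fewer cells of a type cannot be told apart from less RNA per cell in these bulk libraries.

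None of the 5 siRNA genes was called by limma (0 higher and 1 lower at an unadjusted p under 0.05) or edgeR. With DESeq2 1 was lower, as were 556 of all 11099 rows. The gene under 0.05 was r2d2 (log2 fold change −0.50, adjusted p = 0.132, limma). AGO2, the Argonaute of the siRNA pathway, had 23543, 23302, 16569 and 18733 in de2f1b SGs and 25004 and 35064 in w1118 SGs (log2 fold change −0.54, adjusted p = 0.233, limma). All mutants were below both controls in these 2 of the 5 genes, where 16% of all rows were. The fold change was negative in 3 of the 5 and positive in 2. Of 9 heterochromatin genes none was called by limma (0 higher and 1 lower at an unadjusted p under 0.05), edgeR or DESeq2. In 3 of them all mutants were below both controls, where 16% of all rows were, among them Su(var)3-9, a methyltransferase for histone H3, with 208, 196, 390 and 273 in de2f1b SGs and 504 and 418 in w1118 SGs (log2 fold change −0.84, adjusted p = 0.214, limma). Of 7 genes of telomere protection 6 were matched and 5 tested, moi being listed at 0. None was called by limma (1 higher and 0 lower at an unadjusted p under 0.05) or edgeR. DESeq2 called 1 higher, against 1088 of all 11099 rows. The highest fold change was that of ver, a protein of the telomere cap, with 167 to 203 in de2f1b SGs and 108 and 117 in w1118 SGs (0.72, adjusted p = 0.178, limma).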

How the data were processed

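RNA-seq of SGs was analysed in 4 de2f1b and 2 w1118 libraries. The authors used STAR 2.7.6a for alignment (build BDGP6, annotation release 102) and featureCounts 1.6.0 for counting, and deposited a signal per row, in which the reads of each library are divided by its DESeq2 size factor. The 8 columns of the authors' comparison (mean, fold changes, p-values) were not used. Divided by the value of 1 read, 100% of the deposited values came out whole (tolerance 0.01 reads), so whole reads were recovered. Positions and host genes are those of BDGP6.54, in which all 1032 insertions have a position.

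Rows that reached a value of 10 in 2 or more libraries went into limma 3.58.1 (R 4.3.3), two-sided, as log2 values with a pseudocount of 1, an intensity trend and no term but genotype, and called at an adjusted p under 0.05 over 11099 rows. The fits were tested on simulated data. Fold changes on this scale understate those of low rows. Alternatives were pseudocounts of 0.5 and 10, other filters, limma without trend and robust, edgeR 4.0.16 and DESeq2 1.42.0 on whole reads, 3 other scalings, a replicate block and leaving out libraries. Sums and lists were described with no test.

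Members, lists and tests were chosen with earlier results of these data known. Insertions named were those called, the most expressed of each family, and the 10 largest fold changes without overlap, with their host genes. Neighbouring genes, further HeT-A, Cr1a and Doc copies and further list genes were added after their values were seen. A row named R2 without the ending the rule requires was left out. Python 3.11.15 with pandas 2.3.3, NumPy 2.4.6, SciPy 1.17.1 and Matplotlib 3.10.9 made tables and plots.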

Additional observations from a re-analysis of the deposited data

Results flagged for a closer look

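The summed normalized count of the 96 jockey copies in de2f1b replicate 4 was 31.3, against 41.1 to 42.7 in the other de2f1b libraries and 64.2 and 95.3 in w1118. On the log2 of the sum plus 1, its gap to the next library was 0.878 of the range of the group, over Dixon's 95% critical value for 4 samples. It was the only 1 of 41 groups of values examined that stood out in this way, where chance alone flags about 1 in 20.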

How the results depend on the processing

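The count of 2 insertions called higher held with robust limma, a mean of at least 10, the same total, and the same total outside the 50 most abundant genes. It was 3 with a pseudocount of 0.5 and with the median of ratios without transposable elements, 6 without the trend and 8 with DESeq2. It was 0 with a pseudocount of 10, without a filter and with edgeR, 0 to 1 over the fits without 1 library, and 0 without de2f1b replicates 3 and 4, an alternative chosen after seeing the data. The count called lower was 1 with a pseudocount of 10, without a filter and without the trend, 2 with DESeq2, and 0 in the other fits. With the replicate block, 0 insertions were called (4 higher and 1 lower at an unadjusted p under 0.05), and 5 rows rose and 2 fell among all rows. Deviations of libraries with equal replicate numbers correlated at −0.32 and −0.36. With 2 controls the deviation of 1 is the exact negative of the other, so these values cannot show whether equal numbers share a batch.

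Of the 23 named insertions 20 kept their direction under every alternative that gave a value. Doc{}CHKov1[Doc1420] changed sign to 0.022 with the same total, 0.072 with the same total outside the 50 most abundant genes and 0.19 without de2f1b replicates 3 and 4, with −0.29 to 0.0096 over the fits without 1 library. G3{}639 was −0.034 with the block and −0.42 to 0.47 over the fits without 1 library. Rt1b{}5667 was 0.052 with edgeR, 0.038 with DESeq2, −0.60 to 0.22 over the fits without 1 library and 0.32 without replicates 3 and 4. None of these 3 was called in any fit, and the cause was not tested. The log2 ratio of the sum over all insertions was 0.12 to 0.63.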
